A study of Mus musculus with 20 samples.

Results

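The genes described here are the CDK inhibitors of the mouse, the proteins that hold back the kinases of the cell cycle, measured in hair follicle stem cells. Members were found by matching the transcript named for each array probe to the RefSeq symbols Cdkn1a, Cdkn1b, Cdkn1c, Cdkn2a, Cdkn2b, Cdkn2c and Cdkn2d, and each gene was represented by its brightest probe among those that passed a filter on dim probes. This gave 7 members among 18727 genes tested, and all 7 had a probe that passed. Cdkn1c passed only through its telogen arrays.

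Cyclin-dependent kinases (CDKs) drive a cell from rest into DNA synthesis and division, and CDK inhibitors bind and block them. The Cip/Kip proteins p21, p27 and p57, encoded by Cdkn1a, Cdkn1b and Cdkn1c, act mainly on Cdk2 and Cdk1 with their cyclins, while the Ink4 proteins p16, p15, p18 and p19, encoded by Cdkn2a, Cdkn2b, Cdkn2c and Cdkn2d, block the cyclin D kinases Cdk4 and Cdk6. Follicle stem cells sit in the bulge, rest through telogen and divide at the start of anagen, the growth phase, so the brakes of the cycle belong to the state that these cells leave and re-enter.

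All samples were from male mice, and the labels name the cells only as hair follicle stem cells. Normal diet (ND) or high fat diet (HFD) was given for 3 months, to an age of 5 months at sampling, or for 4 days, to an age of 2 months, and an aged group was sampled at 24 months. Each of these 5 conditions had 3 telogen arrays and 1 anagen array, 20 arrays in all, with total RNA labelled with a single dye. Strain, genotype, the way the cells were isolated, the diet of the aged mice and whether RNA of several mice was pooled are not given in the sources used here. Nothing in the labels says that the 3 arrays of a group came from separate mice, so the p-values rest on the spread of these samples alone, which may be technical.

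Of the spots on an array, 60.7% to 83.5% stood well above background, and 0 were saturated. The 9 fixed markers of bulge stem cells, Cd34, Krt15, Lgr5, Sox9, Lhx2, Itga6, Col17a1, Krt5 and Krt14, were well above background on all 20 arrays. Cd34, a surface marker of the bulge, lay between 4.73 and 5.80 on the telogen arrays and between 2.53 and 3.45 on the anagen arrays, with no overlap. The division marker Mki67 lay between -3.51 and 2.75 in telogen and between 3.48 and 4.40 in anagen, again with no overlap. These and all later levels are log2 intensities after subtraction of the 75th percentile of the array, and a level of 1 gene is not compared with that of another.

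Cdkn1a and Cdkn2b were each measured by a pair of probes, and promoter sequences of RefSeq (build GRCm38.p6, from 250 bases before to 50 bases after a start) were available for 6 of the 7 members. The windows of Cdkn1a are shown because its probes are annotated to different transcripts and did not move together, and that of Cdkn2b because it was the member that varied most in telogen. The tables used do not pair a start with a transcript, so neither Cdkn1a window is assigned to a probe. Capitals mark a pair of CATG cores spaced by 6 bases (CATGNNNNNNCATG, the core of a p53 binding site) or the GC box GGGCGG, both searched on either strand.
Cdkn1a, first start, chr17:29090729-29091028, plus strand: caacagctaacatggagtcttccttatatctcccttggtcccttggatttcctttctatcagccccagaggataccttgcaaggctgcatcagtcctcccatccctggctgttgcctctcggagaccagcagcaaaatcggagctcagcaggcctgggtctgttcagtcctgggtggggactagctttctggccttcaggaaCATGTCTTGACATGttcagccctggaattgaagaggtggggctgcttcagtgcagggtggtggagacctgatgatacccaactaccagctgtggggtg
Cdkn1a, second start, chr17:29093519-29093818, plus strand: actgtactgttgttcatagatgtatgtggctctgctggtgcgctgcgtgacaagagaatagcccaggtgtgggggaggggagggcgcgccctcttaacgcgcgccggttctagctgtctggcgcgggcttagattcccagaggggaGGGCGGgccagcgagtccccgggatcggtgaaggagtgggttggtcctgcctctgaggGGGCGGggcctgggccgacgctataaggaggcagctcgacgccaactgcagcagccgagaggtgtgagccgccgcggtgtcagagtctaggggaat
Cdkn2b, chr4:89310983-89311282, minus strand: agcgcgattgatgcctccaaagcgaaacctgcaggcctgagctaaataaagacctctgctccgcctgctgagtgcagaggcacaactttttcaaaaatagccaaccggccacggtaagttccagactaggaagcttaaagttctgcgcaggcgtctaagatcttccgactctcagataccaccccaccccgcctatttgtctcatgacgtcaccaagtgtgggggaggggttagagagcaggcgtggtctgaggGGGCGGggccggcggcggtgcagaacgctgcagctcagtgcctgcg
The first Cdkn1a window held the CATG pair once, beginning at position -48 from the start, and the other 8 windows of the members held none. This pair was found in 0.712% of 32851 windows of this length. GC boxes, held by 35.7% of all windows, were absent from the first Cdkn1a window, present 2 times in the second and once in that of Cdkn2b. A match describes the letters of a window and shows no binding.

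Cdkn1c was the only 1 of the 7 CDK inhibitors whose change between telogen and anagen passed the test, and it was lower in anagen. It entered the tests only through telogen, being well above background on all 15 telogen arrays and on 1 of 5 anagen arrays, so a gene this dim in anagen could enter only if it was higher in telogen, and the count of 1 member is a description. Its product p57 is encoded by an imprinted gene and is known for holding stem cells at rest. In telogen the 3 ND 3 months arrays read 0.24, 1.46 and 2.49, the HFD 3 months arrays 0.57, 0.77 and -1.95, and the ND 4 days arrays -1.83, -0.27 and 2.06. HFD 4 days arrays read -0.89, 1.32 and 0.71, and aged arrays 1.18, -0.66 and 0.58. All 15 telogen arrays were well above background, and the 5 groups overlapped. In anagen it read -7.11 and -5.99 on the ND and HFD arrays of 3 months, -5.92 on the HFD array of 4 days and -7.21 on the aged array, none of them well above background, and -0.97 on the ND array of 4 days, which was. Cdkn1c was thus near or under the detection limit on 4 of the 5 anagen arrays, and on the fifth it lay within the range of the telogen arrays of its own condition.

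Cdkn1c fell by 5.83 ± 0.86 (log2, SE, 5 anagen against 15 telogen arrays with condition in the fit, 95% interval -7.65 to -4.01, adjusted p = 0.000804, limma). In this comparison 6.11% of all genes passed the threshold of 0.05, against 1 of 7 members. Since 4 anagen values are only bounds, the telogen mean was divided by the dimmest signal that the same anagen array still called above background. The telogen mean was 77.7-fold above that signal in ND 3 months, 30.0-fold in HFD 3 months, 54.4-fold in HFD 4 days and 40.2-fold in aged. The dimmest signal could come from any probe, so these ratios are not lower limits for Cdkn1c. They also leave out the telogen spread: the third HFD 3 months telogen array read -1.95, against a dimmest anagen signal of -5.11. Each ratio rests on 1 anagen array.

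On every slide the anagen arrays occupied the first column and the telogen arrays the others, so column and phase cannot be told apart. With only the 3 conditions whose phases shared a slide (ND 3 months, ND 4 days and aged), the difference of Cdkn1c was -5.68 and its adjusted p 0.0571. In bulk RNA, fewer cells that express a gene and less of its RNA per cell cannot be told apart. The summed level of fibroblast markers was also lower in anagen: 4 of the 6 fixed markers were measured, of which Col1a2 fell, Dcn rose and the others did not pass, and Pdgfra and Lum had no probe that passed the filter. Their summed linear level was 2.27 to 9.94 in telogen, with a median of 5.60, and 0.980 to 2.42 in anagen. The collagen gene Col1a2 lay between 1.07 and 3.28 in telogen and between -0.58 and 0.76 in anagen. It made up most of the telogen sum, with a telogen median of 2.38, against -2.44 for Col1a1, -3.28 for Col3a1 and -6.57 for Dcn. Of the 4 genes, 2 differences lay above 0 and 2 below, with a median of -0.22, against -0.16 for all genes. The part of these markers in the Cdkn1c values was not tested.

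**Figure D1:**
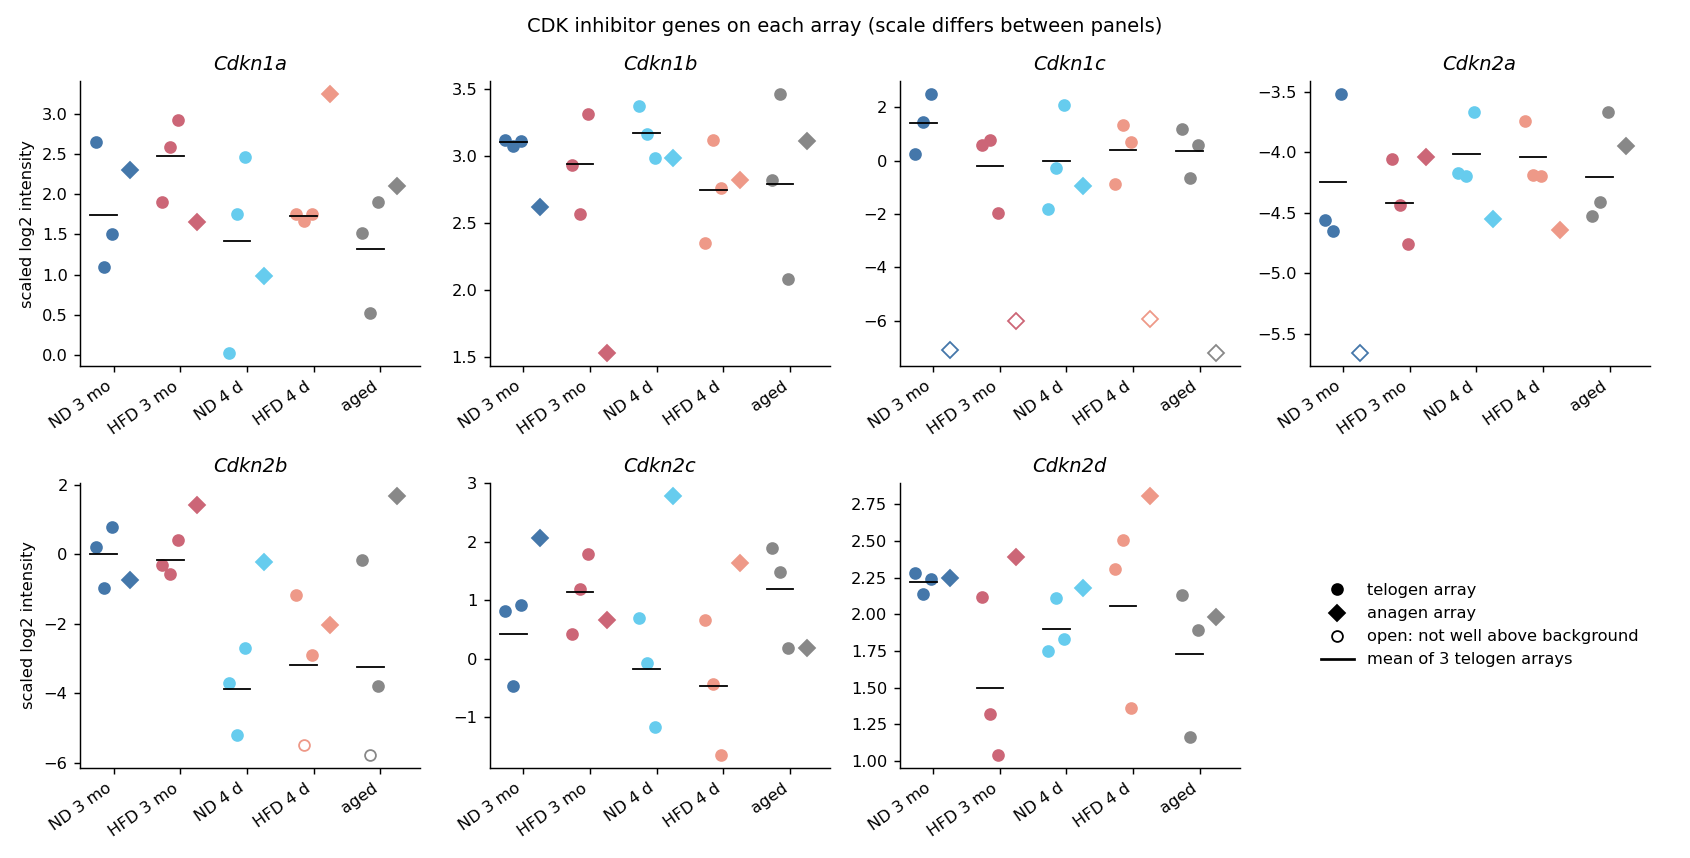
Scaled log2 intensity of the 7 CDK inhibitor genes on each of the 20 arrays, 1 panel per gene with its own axis. Circles are telogen arrays with a bar at the mean of 3, diamonds are the single anagen arrays, and open symbols were not well above background. Cdkn1c stands between -1.95 and 2.49 on all telogen arrays and under -5.9 on 4 of the 5 anagen arrays.

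Cdkn1a, whose product p21 arrests the cycle after p53 activation, showed no difference that passed the test in any comparison. Its brighter probe read 2.65, 1.09 and 1.50 in ND 3 months telogen, 1.91, 2.59 and 2.93 in HFD 3 months, and 0.02, 1.75 and 2.47 in ND 4 days. HFD 4 days arrays read 1.75, 1.67 and 1.75, and aged arrays 1.52, 0.52 and 1.91. The 5 groups overlapped, and in the order of their means, from HFD 3 months at 2.48 to aged at 1.32, no step between neighbours exceeded the standard deviation within groups of 0.78. In anagen it read 2.30 and 1.66 on the ND and HFD arrays of 3 months, 0.98 and 3.25 on those of 4 days and 2.10 on the aged array. These lay on both sides of the telogen arrays, and the difference was 0.33 ± 0.39 (SE, adjusted p = 0.637, limma).

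The dimmer Cdkn1a probe gave another picture. In telogen it read 0.39 on the first ND 3 months array and between -3.90 and -1.60 on the other 14 telogen arrays. In anagen it read -0.02 and -0.87 on the ND and HFD arrays of 3 months, -2.32 and -3.18 on those of 4 days and 1.1 on the aged array. The HFD 4 days anagen array, highest of the 5 by the brighter probe, was the lowest of the 5 by this one. Its anagen difference was 1.75 ± 0.62 (SE, adjusted p = 0.108, limma), and its diet differences were -1.13 ± 0.88 at both durations, against 0.73 ± 0.60 after 3 months and 0.31 ± 0.60 after 4 days by the brighter probe. The direction of Cdkn1a under the diet therefore rests on the probe, and neither passed.

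Cdkn1b varied little. Its product p27 accumulates in resting cells and is removed by the ubiquitin ligase that contains Skp2. It read 3.12, 3.07 and 3.11 in ND 3 months telogen, 2.93, 2.57 and 3.31 in HFD 3 months, and 3.37, 3.16 and 2.98 in ND 4 days. HFD 4 days arrays read 2.35, 3.12 and 2.76, and aged arrays 2.82, 3.46 and 2.08. The standard deviation within telogen groups was 0.40, against a median of 0.67 over all genes, and the 5 means spanned 0.43, from 3.17 in ND 4 days to 2.74 in HFD 4 days. The anagen arrays read 2.62 and 1.53 on the ND and HFD arrays of 3 months, 2.98 and 2.82 on those of 4 days and 3.11 on the aged array. The HFD 3 months anagen array was the lowest of all 20, and the anagen difference was -0.34 ± 0.25 (SE, adjusted p = 0.423, limma).

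Cdkn2b showed the widest spread of the members. Its product p15, an Ink4 protein known as a target of TGF-beta signalling, is encoded next to Cdkn2a. It read 0.20, -0.99 and 0.79 in ND 3 months telogen and -0.31, -0.58 and 0.40 in HFD 3 months. It read -3.72, -5.20 and -2.69 in ND 4 days, -1.18, -5.49 and -2.91 in HFD 4 days, and -0.16, -5.78 and -3.79 in aged. By the brighter probe, which gave these values, the 6 arrays of 5-month-old mice all lay above those of 2-month-old mice. The gap was narrow, with the lowest of the former at -0.99 and the highest of the latter at -1.18. The aged group held 1 array at the high level and 2 far lower. By the dimmer probe the ages overlapped, with the first HFD 4 days array at -1.68 and the second ND 3 months array at -2.39. The second HFD 4 days and the second aged array were not well above background. In the order of the telogen means, -0.00 in ND 3 months, -0.16 in HFD 3 months, -3.19 in HFD 4 days, -3.24 in aged and -3.87 in ND 4 days, only the step between HFD 3 months and HFD 4 days, 3.03, exceeded the standard deviation within groups of 1.76.

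ND 3 months exceeded ND 4 days in telogen Cdkn2b by 3.87 ± 1.31 (SE, 95% interval 1.02 to 6.72), which did not pass (adjusted p = 0.348, limma). In that comparison 0.016% of all genes passed and 0 of 7 members. The groups did not overlap for Cdkn2b and Cdkn2d, both higher in ND 3 months. These were 2 of 7 members, against 4.41% of all genes in that direction and 24.2% in either. The dimmer Cdkn2b probe read -0.70, -2.39 and -0.21 in ND 3 months and -4.95, -6.37 and -4.60 in ND 4 days, and its difference was 4.20 ± 1.44 (SE, adjusted p = 0.348, limma). Both probes thus placed all ND 3 months arrays above all ND 4 days arrays without passing the test. Aged lay below ND 3 months by a difference of -3.24 ± 1.31 (SE, adjusted p = 0.365, limma), with -1.97 without the second aged array and -4.78 without the first.

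The groups of the ND comparison differed in age and in slide as well as in diet duration, and these cannot be told apart among telogen arrays. With the slide as a term, which rests on the anagen arrays, the ND difference of Cdkn2b was 1.72 and the aged difference from ND 3 months turned to 0.68. Markers of suprabasal epidermis, of which 6 of 7 were measured, all on 20 arrays, and Flg was not, had a summed level of 172 to 217 in ND 3 months, 173 to 263 in HFD 3 months, 121 to 211 in ND 4 days, 109 to 196 in HFD 4 days and 126 to 236 in aged telogen. Their part in the Cdkn2b values was not tested.

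**Figure D2:**
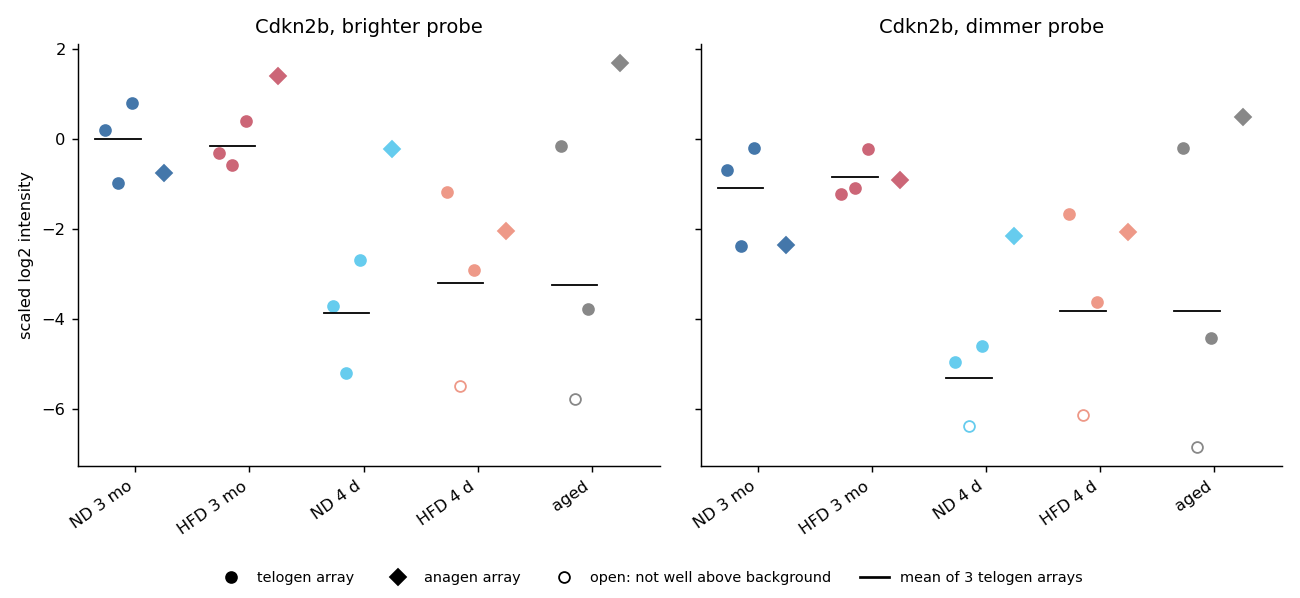
Cdkn2b by both of its probes, as scaled log2 intensity on each array; circles are telogen arrays with a bar at the mean of 3, diamonds the single anagen arrays, and open symbols were not well above background. By both probes the ND 3 months and HFD 3 months telogen arrays lie above all ND 4 days telogen arrays, and the aged telogen arrays spread from -0.16 to -5.78 by the brighter probe.

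In anagen Cdkn2b read -0.76 and 1.40 on the ND and HFD arrays of 3 months, -0.22 and -2.04 on those of 4 days and 1.68 on the aged array. By this brighter probe the HFD 3 months, ND 4 days and aged arrays lay above all 3 telogen arrays of their condition. By the dimmer probe the ND 4 days and aged arrays did so as well. The HFD 3 months array, at -0.91 by that probe, lay within its telogen arrays at -1.22, -1.10 and -0.23. The anagen difference was 2.11 ± 0.87 (SE, 95% interval 0.27 to 3.95, adjusted p = 0.164, limma), and 1.58 ± 0.94 by the dimmer probe (adjusted p = 0.324, limma). Neither probe passed.

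Cdkn2c encodes p18, an Ink4 protein also transcribed in dividing cells. It read 0.82, -0.47 and 0.91 in ND 3 months telogen, 0.42, 1.19 and 1.79 in HFD 3 months, and 0.70, -0.07 and -1.17 in ND 4 days. HFD 4 days arrays read 0.66, -0.44 and -1.65, and aged arrays 1.90, 1.49 and 0.18. No step between neighbouring group means, from 1.19 in aged to -0.47 in HFD 4 days, exceeded the standard deviation within groups of 0.91. In anagen it read 2.07 and 0.66 on the ND and HFD arrays of 3 months, 2.79 and 1.63 on those of 4 days and 0.18 on the aged array. The ND 3 months, ND 4 days and HFD 4 days anagen arrays lay above the telogen arrays of their condition, and the difference of 1.05 ± 0.54 did not pass (SE, adjusted p = 0.257, limma).

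Cdkn2d encodes p19, the fourth Ink4 protein. It read 2.28, 2.14 and 2.24 in ND 3 months telogen, 2.12, 1.32 and 1.04 in HFD 3 months, and 1.75, 2.11 and 1.83 in ND 4 days. HFD 4 days arrays read 2.31, 2.51 and 1.36, and aged arrays 2.13, 1.16 and 1.89. The ND 3 months arrays lay above all arrays of HFD 3 months, of aged and of ND 4 days, by differences of group means that did not pass. In anagen it read 2.25 and 2.39 on the ND and HFD arrays of 3 months, 2.18 and 2.81 on those of 4 days and 1.98 on the aged array. All 5 anagen arrays exceeded the telogen mean of their condition, and the difference of 0.44 ± 0.23 did not pass (SE, adjusted p = 0.257, limma).

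Cdkn2a, whose locus encodes p16 and the p53 regulator Arf and which is known as a marker of senescent cells, was dim. Both of its probes are annotated to the same transcript, and the sources used here do not say whether it encodes p16 or Arf. Its brighter probe lay between -4.76 and -3.52 on the 15 telogen arrays, with a median of -4.20, and was well above background on all of them; its dimmer probe was above background on 0 of 20 arrays. The aged arrays averaged -4.20 ± 0.47 (SD, n = 3) against -4.24 ± 0.63 in ND 3 months and -4.01 ± 0.30 in ND 4 days. The aged differences were 0.04 ± 0.37 against ND 3 months and -0.19 ± 0.37 against ND 4 days (SE), with 95% intervals of -0.76 to 0.84 and -0.99 to 0.61. In anagen it read -5.66 (not well above background) and -4.04 on the ND and HFD arrays of 3 months, -4.55 and -4.64 on those of 4 days and -3.95 on the aged array, and the difference of -0.38 ± 0.26 did not pass (adjusted p = 0.392, limma).

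**Figure D3:**
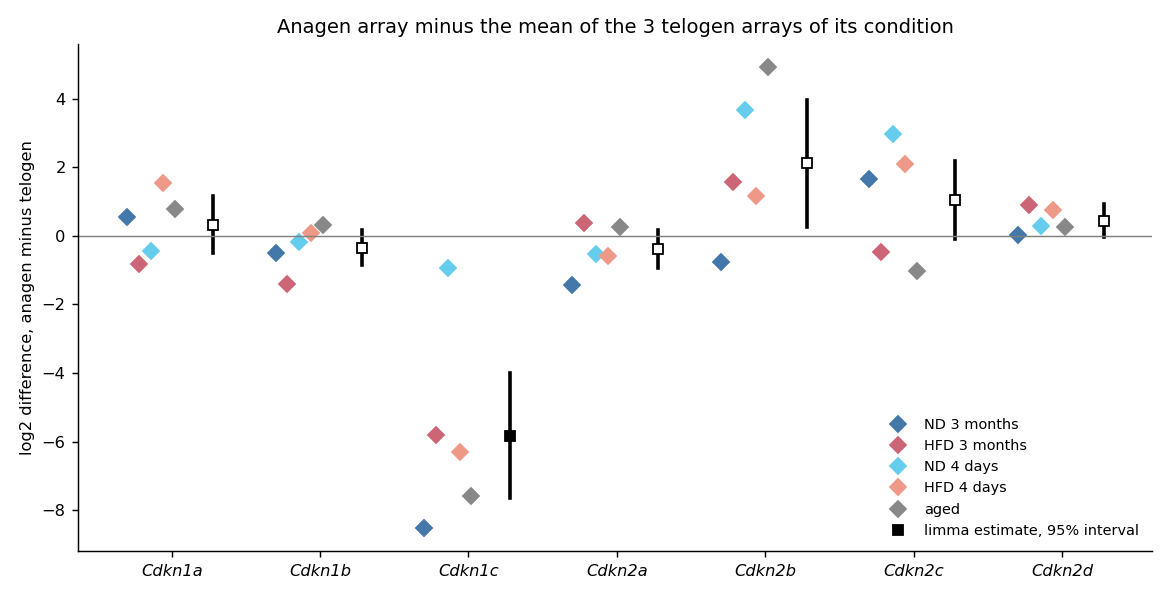
For each gene, coloured diamonds give the anagen array minus the mean of the 3 telogen arrays of its condition (log2), and squares give limma's estimate with its 95% interval, filled where the adjusted p was below 0.05. Only the Cdkn1c square is filled, and its ND 4 days diamond, at -0.95, stands apart from the other 4, which run from -8.51 to -5.79 and rest on anagen values not well above background.

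The diet comparisons ask whether high fat feeding moves the brakes of the cycle in resting stem cells. After 3 months, differences of the members ran from -1.60 ± 1.04 for Cdkn1c to 0.73 ± 0.60 for Cdkn1a (SE, 3 against 3 arrays). After 4 days they ran from -0.43 ± 0.35 for Cdkn1b to 0.68 ± 1.31 for Cdkn2b. At both durations 0% of all genes and 0 of 7 members passed (limma), with 730 genes at an unadjusted p below 0.05 after 3 months, 817 after 4 days and 0 members in either. Arrays of the diets did not overlap after 3 months for 1 member, Cdkn2d, lower in HFD by a difference of -0.72 ± 0.38 (95% interval -1.55 to 0.10), against 5.7% of all genes in that direction and 9.85% in either, and after 4 days for 0 members, against 9.7%.

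The 95% interval for Cdkn1b was -0.93 to 0.60 after 3 months and -1.20 to 0.34 after 4 days. Those of Cdkn1c and Cdkn2b after 3 months were wider, at -3.86 to 0.66 and -3.01 to 2.69. Averaged over both durations, differences of the members ran from -0.60 ± 0.73 for Cdkn1c to 0.52 ± 0.43 for Cdkn1a, with 0% of all genes passing and 803 at an unadjusted p below 0.05. The test of the difference between durations likewise called 0% of all genes, with 701 at an unadjusted p below 0.05, and its value was farthest from 0 for Cdkn1c, at -1.99 ± 1.47. The telogen arrays of both diets of a duration shared a slide but lay in different rows, and row and diet cannot be told apart.

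For ageing, 0.0641% of all genes passed against ND 3 months and 0.0374% against ND 4 days, and 0 of 7 members in either (limma). At an unadjusted p below 0.05 there were 2232 and 1470 genes, with Cdkn2b the 1 member, against ND 3 months and by its brighter probe. By its dimmer probe that difference was -2.72 ± 1.44 (SE, unadjusted p = 0.0827, limma). Cdkn1a in aged differed by -0.43 ± 0.60 from ND 3 months and by -0.10 ± 0.60 from ND 4 days. Cdkn2c differed by 0.77 ± 0.70 and 1.37 ± 0.70, with 95% intervals of -0.75 to 2.28 and -0.14 to 2.88. Aged arrays did not overlap with ND 3 months for 1 member, Cdkn2d at -0.49 ± 0.38, against 6.46% of all genes in that direction and 18% in either, and with ND 4 days for 0 members, against 10.5%. Both aged comparisons share the same aged arrays, which lay on a slide of their own among the telogen groups.

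**Figure D4:**
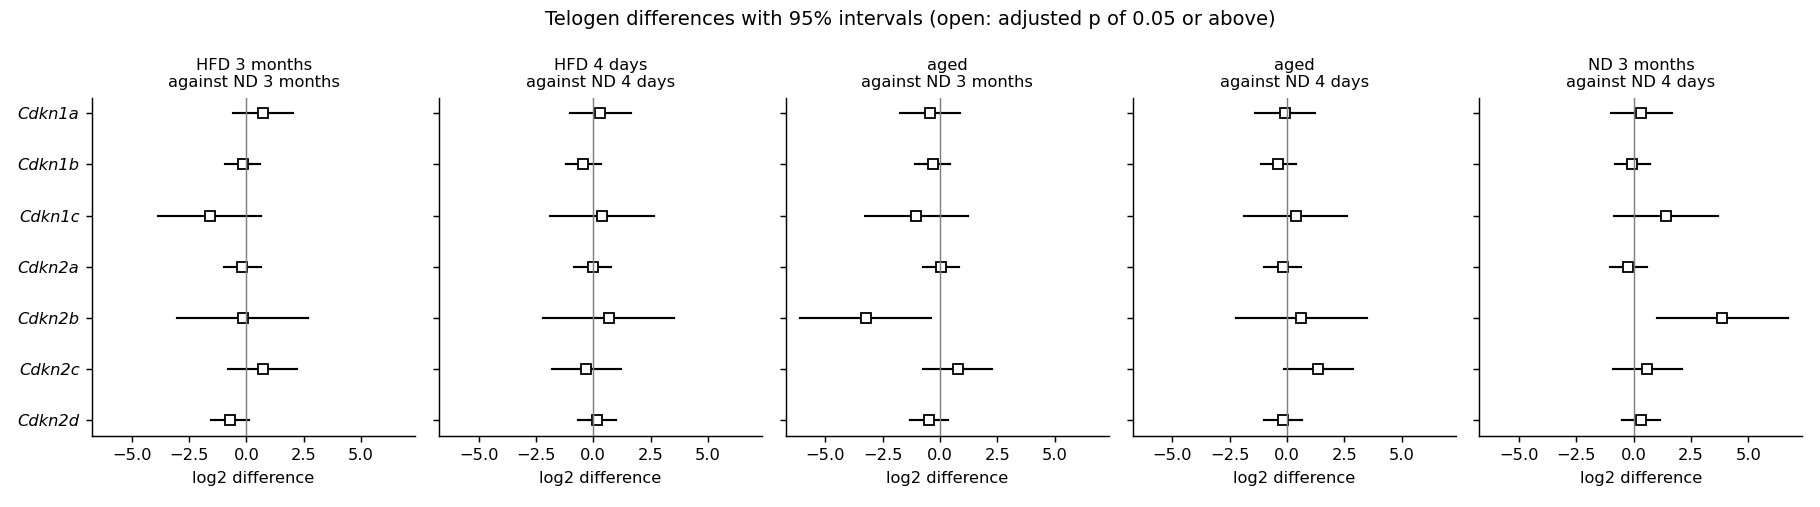
Log2 differences between telogen groups for the 7 genes, with 95% intervals from limma; 1 panel per comparison, all symbols open because no adjusted p was below 0.05. The intervals of Cdkn1b, Cdkn2a and Cdkn2d are the narrowest and those of Cdkn1c and Cdkn2b the widest in each panel.

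The genes around the inhibitors were read from fixed lists, chosen with earlier results of these data known, against a median difference of -0.16 over all genes in anagen (0.06 with scaling by the median of each array). A gene could enter these tests through either phase alone, so counts that passed are descriptions. Of all 18727 genes, 526 rose and 619 fell past the threshold in anagen. Some genes named below were not well above background on all 15 telogen arrays, so the size of their rise depends on dim values. Cdk1 and E2f8 were well above it on 10 of 15, Cdc25c on 14, E2f3 on 12, Bub1b on 11, Dtl on 9, Eda2r on 6 and Bub1 on 4. Among the partners that Cip/Kip proteins block, Cdk2 and Cdk1 with their cyclins and the activating Cdc25 phosphatases, 3 of 10 rose and 0 fell, with a median of 2.73. Cdk1, the mitotic kinase, rose by 4.30 ± 0.90 (SE, adjusted p = 0.00945, limma), from a telogen median of -4.19 to an anagen median of 0.21. Its cyclin partner Ccnb2 rose by 3.10 ± 0.50 and its activator Cdc25c by 4.10 ± 0.83 (adjusted p = 0.00157 and 0.00752, limma). For these 3 genes no anagen array overlapped with telogen, as for 0.79% of all genes higher in anagen. The lowest anagen and highest telogen values were close for Cdk1, at -1.14 and -1.21, and for Cdc25c, at 0.22 and 0.17. For Ccnb2 they were 0.60 and 0.29. Cdkn1c moved the other way, with overlap between the phases. The count of 3 was 1 in the conditions with both phases on 1 slide, 2 with the slide block or without the HFD 4 days anagen array, 5 without that of HFD 3 months, 5 with scaling by the median or array weights and 6 with normexp background.

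Of the cyclin D kinases and D cyclins, the targets of the Ink4 proteins, 1 of 5 rose, Cdk4 by 0.73 ± 0.19 (adjusted p = 0.0298, limma), with a median of 0.11. This count was 0 without the anagen array of ND 3 months, ND 4 days, HFD 4 days or aged, with the slide block, and in the conditions with both phases on 1 slide. Among pocket proteins, which hold E2F factors in check until CDKs phosphorylate them, and the E2F factors with their partners, 4 of 17 rose and 0 fell, with a median of 0.98. The E2F factors E2f1, E2f3 and E2f8 rose by 1.90 ± 0.44, 4.37 ± 0.95 and 4.55 ± 1.31, and their partner Tfdp1 by 0.88 ± 0.24 (adjusted p = 0.0173, 0.0115, 0.0499 and 0.0417, limma). Of the genes for removal of CDK inhibitors 3 of 12 measured rose: Cdc20, which directs the anaphase-promoting complex, by 1.93 ± 0.25, Cks1b, the Skp2 cofactor that reads p27, by 0.95 ± 0.22, and Dtl, which directs the Cul4 ligase to p21, by 4.30 ± 1.18 (adjusted p = 0.000261, 0.0183 and 0.0416, limma). Skp2 itself differed by 1.83, which did not pass (adjusted p = 0.241, limma). The count of 3 was 1 without the anagen array of ND 3 months, ND 4 days, HFD 4 days or aged, and in the conditions with both phases on 1 slide, and 2 with the slide block.

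Proliferation markers rose in 19 of 22 cases and fell in 0, with a median of 2.02. Examples are Mcm5, a subunit of the replicative helicase, by 2.41 ± 0.42, the spindle checkpoint kinase Bub1 by 4.90 ± 0.88, Mcm2 by 2.86 ± 0.56 and the checkpoint gene Bub1b by 3.79 ± 0.76 (adjusted p = 0.00286, 0.00317, 0.0063 and 0.00747, limma). This count fell to 6 without the anagen array of ND 3 months, of ND 4 days or of HFD 4 days, to 12 without that of aged, and to 3 in the conditions with both phases on 1 slide, where the median was 2.26. The counts of the E2F list moved as well, to 0 without the anagen array of ND 3 months or HFD 4 days, to 1 without that of ND 4 days, and to 0 with both phases on 1 slide.

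Of the quiescence factors of the bulge 6 of 18 fell, as Cdkn1c did, and 0 rose, with a median of -0.53. Id2, an inhibitor of differentiation induced by BMP signals, fell by 2.40 ± 0.23 (adjusted p = 2.41e-05, limma), from a telogen range of 0.73 to 2.30 to an anagen range of -1.14 to -0.76. Id3 fell by 1.88 ± 0.23, the transcription factor Foxp1, which holds bulge cells at rest, fell by 1.95 ± 0.30, and Fgf18, a growth factor made by resting bulge cells, fell by 4.78 ± 0.64 (adjusted p = 0.000168, 0.00102 and 0.000348, limma). Leaving out an anagen array, or keeping the conditions with both phases on 1 slide, left 5 or 6 of these 18. Markers of bulge stem cells share Lhx2 and Sox9 with this list. Of these markers 3 of 9 fell and 0 rose, with a median of -0.44, and their summed linear level was 382 to 684 in telogen, with a median of 603, and 352 to 524 in anagen, with a median of 379. Of the suprabasal markers 1 of 6 measured rose and 0 fell, with a median of 0.68, and their summed level was 109 to 263 in telogen, with a median of 173, and 167 to 249 in anagen, with a median of 215. The part of either in the quiescence factors was not tested. Among the regulators of CDK inhibitor transcription 4 of 21 measured fell and 0 rose: Id1 fell by 1.76 ± 0.28, Klf4, a factor that activates Cdkn1a, fell by 0.78 ± 0.15, the Polycomb subunit Cbx7 fell by 2.23 ± 0.51 and Foxo3, an activator of Cdkn1b, fell by 0.92 ± 0.26 (adjusted p = 0.00135, 0.00578, 0.0157 and 0.0437, limma). Id1 is also 1 of the 6 quiescence factors that fell. With scaling by the median the count of regulators was 2, and in the conditions with both phases on 1 slide it was 1.

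Of the other p53 targets 2 of 14 rose and 1 fell, with a median of 0.18 and 10 of 14 above 0. Eda2r, a death receptor of the TNF family, rose by 5.12 ± 0.75, Gadd45a, a growth arrest gene, rose by 1.97 ± 0.54, and Phlda3, an Akt repressor, fell by 0.67 ± 0.19 (adjusted p = 0.000734, 0.0416 and 0.0499, limma). Without the anagen array of ND 3 months, ND 4 days, HFD 4 days or aged, 1 rose and 0 fell, and in the conditions with both phases on 1 slide 0 passed.

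In the telogen comparisons of diet and age, 0 genes of any of these lists passed. The pocket protein gene Rb1 had the smallest p of the lists in 3 of the comparisons of 2 groups, with HFD 4 days above ND 4 days by 2.49 ± 0.57, ND 3 months above ND 4 days by 2.52 ± 0.57 and aged above ND 4 days by 2.78 ± 0.57 (adjusted p = 0.556, 0.217 and 0.171, limma). These 3 comparisons share the ND 4 days arrays. Cenpf, a kinetochore gene, followed in those of ND 3 months and aged, at 4.74 ± 1.12 and 4.37 ± 1.12 (adjusted p = 0.219 and 0.296, limma). For the diet after 3 months the smallest p was that of Cdc20, at 1.09 ± 0.37, and for aged against ND 3 months that of Zbtb17, which encodes the Myc partner Miz-1, at -2.78 ± 0.78 (adjusted p = 0.9995 and 0.266, limma).

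**Figure D5:**
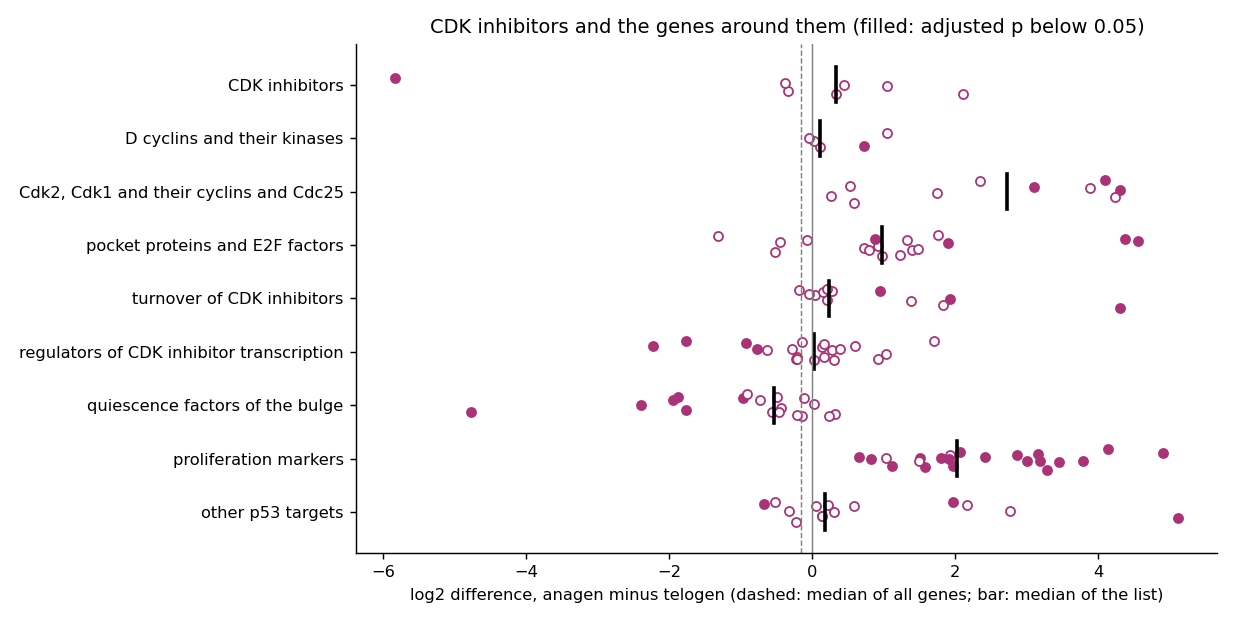
Log2 difference between anagen and telogen for the 7 CDK inhibitors and for each gene of 8 lists around them, filled where the adjusted p was below 0.05, with a bar at the median of the list and a dashed line at the median of all genes. The median is 2.02 for proliferation markers and -0.53 for quiescence factors, and Cdkn1c lies at -5.83.

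Differences between single anagen arrays have no replicate. The arrays of each difference given here lay on different slides, so slide cannot be told apart from diet or age. HFD minus ND after 4 days was 2.27 for Cdkn1a, -0.16 for Cdkn1b, -1.82 for Cdkn2b, -1.16 for Cdkn2c and 0.63 for Cdkn2d. After 3 months the same genes gave -0.64, -1.09, 2.15, -1.42 and 0.14. By their brighter probes, which gave these values, Cdkn1a and Cdkn2b had opposite signs at the 2 durations. Cdkn2c was lower on both HFD arrays. The dimmer Cdkn1a probe was lower on HFD at both durations, at -0.87 against -0.02 after 3 months and -3.18 against -2.32 after 4 days. The dimmer Cdkn2b probe was higher on HFD at both, at -0.91 against -2.36 and -2.06 against -2.15. The opposite signs thus rest on the probe. Aged minus ND 3 months was 2.44 for Cdkn2b by its brighter probe and -1.89 for Cdkn2c.

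The 4 members well above background on all 20 arrays were set against 13011 genes measured as well, as a description over arrays that share their slides, phases and groups. Levels most like those of Cdkn2c were Zfp367 (Pearson r of 0.90), Slc7a2 (0.79) and Gtf2h4 (0.79). Those nearest Cdkn1b were Lratd2 (r of 0.82), Prpf39 (0.80) and Dlx3 (0.79). For Cdkn1a they were Sdccag8 (r of 0.76), Ankib1 (0.74) and Ddx3x (0.74), and for Cdkn2d Pbx2 (0.73), Clspn (0.72) and Ehd4 (0.71).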

How the data were processed

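Total RNA of 20 samples was hybridised to single-colour Agilent mouse arrays. Per the submitters' processing notes and the file headers, Agilent Feature Extraction 10.7.1.1 gave the deposited spot intensity, background-subtracted and detrended, unscaled between arrays; the headers name build mm9. The authors' deposited series table holds a linear signal that matched the intensity divided by the 75th percentile of its array, without centring.

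Outlier spots (62 to 159 per array) were dropped, spots of a probe averaged, and log2 intensities scaled by that percentile. Probes entered the tests if a telogen group had them above background on its 3 arrays, or if 3 of 5 anagen arrays did (43395 of 56605 probes; 32994 matched a RefSeq symbol), and a gene took its brightest tested probe. limma 3.58.1 in R 4.3.3 was fitted over 15 telogen arrays, or over 20 arrays with condition and phase, with Benjamini-Hochberg adjustment over 18727 genes. The number of arrays limits precision. Members, lists and tests were chosen with earlier results of these data known. All members are named; of each list, up to 4 genes with the smallest p among those that passed in anagen are named. The rule also gave 2 genes per list where none passed; of these, only those with the smallest p over all lists in a telogen comparison of 2 groups are printed, with Cenpf, which came next in 2 of these. Skp2 and Cenpf were chosen after their values were seen. Marker lists of other cell types were read as summed levels. Alternatives are given in the closing section. Same-numbered arrays did not deviate together, which cannot show whether the numbers pair samples, and the main fits used no pairing.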

Additional observations from a re-analysis of the deposited data

Results flagged for a closer look

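By the brighter probes of Cdkn1a and Cdkn2a the single anagen array lay above all 3 telogen arrays in some conditions and below all 3 in others. These differences between conditions were not tested. Anagen minus telogen for Cdkn1a was 1.53 in HFD 4 days and 0.79 in aged, with the anagen array above, and -0.81 in HFD 3 months, with it below. By the dimmer Cdkn1a probe the anagen array lay below all 3 in no condition. In HFD 3 months it read -0.87 by that probe, above telogen arrays at -2.92, -3.77 and -3.88. In HFD 4 days it lay within them. For Cdkn2a the difference was 0.38 in HFD 3 months, with the anagen array above. It was -1.42 in ND 3 months, -0.53 in ND 4 days and -0.60 in HFD 4 days, with the anagen array below. The ND 3 months anagen value of Cdkn2a was not well above background.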

How the results depend on the processing

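The fall of Cdkn1c in anagen passed under 33 of 34 alternatives, with differences from -7.05 (without the ND 4 days anagen array) to -3.98 (normexp background). Of these alternatives 20 left out 1 array each, and the others used the same arrays or part of them, so the passes are not separate evidence. Cdkn1c entered the tests only through telogen, so this count is a description. The fall missed only with the conditions that have both phases on 1 slide. There 0 members passed, as with the strict filter, which keeps probes well above background on every array and so removes Cdkn1c. Of 930 values of the members under alternatives that keep all arrays of a comparison or change its fit, 37 turned sign, all of them of differences that did not pass. With quantile normalization these were Cdkn2a at -0.22 (aged against ND 3 months) and Cdkn1a at 0.01 (aged against ND 4 days). With scaling by the median they were Cdkn2a at -0.24 (aged against ND 3 months) and Cdkn1b at 0.08 (ND 3 months against ND 4 days). With normexp background Cdkn2a turned to 0.01 and 0.08 for the diet at 3 months and 4 days, 0.05 averaged over both, and -0.04 for aged against ND 3 months. With the percentile over probes detected on all arrays, Cdkn2a was 0.06 for the diet at 4 days and Cdkn1a 0.02 for aged against ND 4 days, and with array weights Cdkn2a was -0.13 for aged against ND 3 months. With the mean over probes, Cdkn1a was -0.20, -0.41 and -0.30 for the diet at 3 months, at 4 days and averaged, and Cdkn2b 0.05 at 3 months. The other Cdkn1a probe gave -1.13 at both durations and on average, -0.00 for diet by duration and -0.29 for ND 3 months against ND 4 days, and the other Cdkn2b probe 0.25 for the diet at 3 months.

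The slide block gave 0.03 for Cdkn2a and 0.68 for Cdkn2b (diet at 3 months), -0.79 for Cdkn1c (diet at 4 days), 0.07 for Cdkn2a and 0.27 for Cdkn2b (diet by duration) and -0.07 for Cdkn2c (diet averaged). Against ND 3 months, aged gave 0.98 for Cdkn1b, -0.46 for Cdkn2a and 0.68 for Cdkn2b, and against ND 4 days -0.66 for Cdkn1c, 0.04 for Cdkn2a and -0.53 for Cdkn2c. ND 3 months against ND 4 days gave -0.54 for Cdkn1a, -0.59 for Cdkn1c, 0.50 for Cdkn2a and -1.41 for Cdkn2c. The cause of these turns was not tested.

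Counts of all genes that passed moved as follows. For the diet at 3 months there was 1 with quantile normalization and 1 with scaling by the median. With only the groups compared there was 1 for the diet at 4 days and 1 for diet by duration, which also had 1 with scaling by the median. For aged against ND 3 months the 12 became 4 at a threshold of 0.01, 2 with normexp background, 0 with the strict filter, 20 with array weights, 0 with only the groups compared, 7 with the replicate block and 5 with the slide block. For aged against ND 4 days the 7 became 12 with quantile normalization, 3 at 0.01, 3 with normexp background, 0 with the strict filter, 0 with only the groups compared and 1 with the slide block. For ND 3 months against ND 4 days the 3 became 0 at 0.01, 5 with array weights, 0 with only the groups compared, 0 with the replicate block and 7 with the slide block. For anagen the 1145 became 407 at 0.01, 1910 with array weights, 317 with both phases on 1 slide and 677 with the slide block.

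Deviations of same-numbered arrays correlated at -0.139 to 0.0587 over 30 pairs, and those of differently numbered arrays at -0.105 to 0.109 over 60. This cannot show whether the numbers pair samples. With the replicate block no call of a member changed.

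Leaving out each array in turn, the count of genes that passed ran from 0 to 1 for the diet at 3 months, from 0 to 1 for the diet at 4 days, from 0 to 1 for diet by duration, from 0 to 2 for the diet averaged, from 5 to 24 for aged against ND 3 months, from 4 to 6 for aged against ND 4 days, from 0 to 4 for ND 3 months against ND 4 days, from 555 to 2056 for anagen. For the diet at 3 months the values that turned sign ran from -0.35 to 0.02 for Cdkn1b, from -0.39 to 0.18 for Cdkn2a, from -0.65 to 0.24 for Cdkn2b. For the diet at 4 days the values that turned sign ran from -0.39 to 0.84 for Cdkn1a, from -0.52 to 1.43 for Cdkn1c, from -0.18 to 0.15 for Cdkn2a, from -0.33 to 1.82 for Cdkn2b, from -0.87 to 0.29 for Cdkn2c, from -0.06 to 0.52 for Cdkn2d. For diet by duration the values that turned sign ran from -0.11 to 1.12 for Cdkn1a, from -0.36 to 0.21 for Cdkn2a, from -1.98 to 0.17 for Cdkn2b. For the diet averaged the values that turned sign ran from -0.21 to 0.08 for Cdkn2a, from -0.24 to 0.83 for Cdkn2b, from -0.08 to 0.50 for Cdkn2c. For aged against ND 3 months the values that turned sign ran from -0.76 to 0.02 for Cdkn1a, from -0.65 to 0.04 for Cdkn1b, from -0.23 to 0.40 for Cdkn2a. For aged against ND 4 days the values that turned sign ran from -0.79 to 0.43 for Cdkn1a, from -0.53 to 1.42 for Cdkn1c, from -0.91 to 1.90 for Cdkn2b, from -0.37 to 0.11 for Cdkn2d. For ND 3 months against ND 4 days the values that turned sign ran from -0.37 to 0.86 for Cdkn1a, from -0.16 to 0.04 for Cdkn1b.

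For 4 of the 7 members the 95% intervals between telogen groups are wider than 1 log2 unit on either side. They are not adjusted over all genes, so they do not give the smallest difference that could pass. Cdkn2b, at 3.87 for ND 3 months against ND 4 days, had an interval of 1.02 to 6.72 and did not pass (adjusted p = 0.348, limma). With 3 arrays a group, differences in diet or age could have been missed for any member. Dim signals limit Cdkn2a, and anagen values of Cdkn1c are bounds.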

Other observations

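Summed linear levels of the marker lists of other cell types, which no comparison used, were as follows. Hair matrix and inner root sheath markers, 8 of 9 measured, lay between 4.42 and 10.1 in telogen and between 4.03 and 11.9 in anagen. Markers of macrophages and Langerhans cells, 7 of 8 measured, lay between 5.96 and 16.9 in telogen and between 3.95 and 36.7 in anagen, with the highest value on the aged anagen array. T cell markers, 4 of 5 measured, lay between 0.429 and 3.43 in telogen and between 0.395 and 1.04 in anagen. Red blood cell markers, 3 of 5 measured, lay between 0.382 and 5.43 in telogen and between 0.399 and 1.22 in anagen. Melanocyte, sebocyte, adipocyte and endothelial markers overlapped between the phases, at medians of 3.76, 1.19, 2.77 and 0.156 in telogen and 3.98, 1.66, 2.27 and 0.108 in anagen.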
